A study of Mus musculus with 12 samples.

Results

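Cholesterol and fatty acids are made from the same acetyl-CoA pool, and 34 genes of both routes were examined in mouse liver RNA. They were taken as a fixed list of symbols and matched to the Ensembl identifiers of the count files. All 34 were found among 40551 genes, and all 34 passed the filter on low counts that left 15070 genes for testing. By role, 6 encode steps of the mevalonate pathway, 11 the steps from farnesyl diphosphate to cholesterol, 4 regulators or carriers of sterols, 7 the synthesis of fatty acids from cytosolic acetyl-CoA, and 6 the elongation, desaturation and remodelling of fatty acids.

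In hepatocytes the sterol regulatory element-binding proteins drive these genes. SREBP-2, encoded by Srebf2, acts mainly on the cholesterol pathway, and SREBP-1c, a product of Srebf1, acts mainly on fatty acid synthesis and responds to insulin and feeding. Both precursors are held in the endoplasmic reticulum by Insig proteins when sterols are abundant, and both travel with Scap to the Golgi to be cut when sterols are scarce.

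Total RNA was sequenced from livers of 4 genotypes, with 3 libraries of each. WT livers carried neither deletion. Mcl1 KO livers were Mcl1Δhep, in which Alb-Cre removes a floxed Mcl1, the gene of a prosurvival BCL-2 protein, in hepatocytes. The study reports MCL1 staining in such livers as nearly confined to nonparenchymal cells. Sting1 KO livers were Sting1-/-, which lack the adaptor of cytosolic DNA sensing in every cell, and Mcl1 Sting1 DKO livers were Mcl1Δhep Sting1-/-. The study examined WT, Mcl1Δhep and Mcl1Δhep Sting1-/- mice at 2 and 12 months and used both sexes. Its text places the liver transcriptomes of WT and Mcl1Δhep at 2 months, no age is given there for the other groups, and the labels give neither the age nor the sex of a library. Whether the WT animals carried floxed alleles or Cre is not given in the sources used here. Nothing in the labels says that replicates were separate animals beyond their numbered titles, so p-values measure the spread between these libraries.

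Each library held between 28826367 and 45266387 counts, and each member had at least 12 counts in every library. Mcl1 stood at 90.2 to 104 CPM (counts scaled to the library's size) in WT and 77 to 90.1 CPM in Sting1 KO, against 25 to 34 CPM in Mcl1 KO and 18.1 to 26 CPM in Mcl1 Sting1 DKO livers. Sting1 stood at 2.11 to 2.53 CPM in WT and 1.16 to 2.7 CPM in Sting1 KO livers, which overlap, so its counts did not check that label. It stood at 3.67 to 6 CPM in Mcl1 KO and 1.9 to 2.53 CPM in Mcl1 Sting1 DKO livers, which do not overlap and differ in the direction of the labels. All 9 hepatocyte markers were present in every library. Several libraries stood apart. Mcl1 KO replicate 3 held skeletal muscle and pancreas transcripts, with marker sums of 1170 and 7010 CPM against at most 6.58 and 1.62 CPM elsewhere. Adipocyte markers, of a cell that also makes fatty acids, summed to 52.1 CPM there, 22.9 and 17.2 CPM in Mcl1 Sting1 DKO replicates 1 and 2, 13.4 CPM in WT replicate 2 and at most 2.42 CPM elsewhere, and their part in the results was not tested. Y-linked genes were expressed in WT replicates 2 and 3 and in Mcl1 Sting1 DKO replicate 1 and in no other library, so the Mcl1 KO and Sting1 KO groups held none. Small structured RNAs took 2.56% and 1.43% of the counts of Mcl1 KO replicates 2 and 3, and at most 0.924% elsewhere. The clock gene Bmal1 stood at 16 CPM in Mcl1 Sting1 DKO replicate 1 and at 0.931 to 5.52 CPM in the rest. Results below are given with and without these libraries where they moved.

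Promoter windows of 33 members were searched, and 3 held a match to the sterol regulatory element, written TCACNCCAC and searched on both strands of the 250 bases before the annotated start. These stretches are shown because the regulators of the set bind such elements, with the matches in capitals, in genome build GRCm39 and read 5′ to 3′ on the strand of the gene. They come from chr13:120151732-120151798 (plus strand), chr11:84063810-84063898 (plus strand) and chr2:155359618-155359730 (plus strand).
Hmgcs1: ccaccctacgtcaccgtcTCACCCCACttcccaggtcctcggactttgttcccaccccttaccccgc
Acaca: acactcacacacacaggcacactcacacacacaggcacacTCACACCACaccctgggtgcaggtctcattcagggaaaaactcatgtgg
Acss2: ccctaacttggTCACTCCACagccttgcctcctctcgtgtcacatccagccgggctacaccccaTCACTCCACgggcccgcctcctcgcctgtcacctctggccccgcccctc
Starts are those of the canonical transcript of GENCODE vM39, which for all 3 genes lies inside the annotated span of the gene. The matches began 232 bases before the start of Hmgcs1, 98 before Acaca, and 239 and 186 before Acss2. The match of Acaca lies at the end of a repeat of CA. The element was present in 9.09% of the 33 members and in 1.09% of 15011 tested genes with a window of this length. CCAAT was present in 19 members (57.6%, against 35.8% of all), and the E-box CACGTG in 4 (12.1%, against 7.42%). Of 9 searched members that were lower in Mcl1 KO livers, described next, 0 held the sterol element, 4 held CCAAT and 1 the E-box. A match describes the letters of the window and is no evidence of binding.

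Deletion of Mcl1 in hepatocytes went with lower transcript levels across both routes. Of the 34 members, 10 were lower in Mcl1 KO than in WT livers at an adjusted p under 0.05 and 0 were higher, a share of 29.4% against 9.43% of all tested genes called lower and 10.8% called higher (edgeR quasi-likelihood test, Benjamini-Hochberg over 15070 genes). They were Fdps, Lss, Hsd17b7 and Dhcr7 of the cholesterol route, Srebf1 and Stard4 among regulators and carriers, and Acacb, Acly, Fasn and Elovl6 of the fatty acid route. The log2 fold change was negative for 32 members, with a median of -0.71 and a range from -1.75 to 0.41, beside a median of 0.00 and quartiles of -0.35 and 0.42 over all genes. In 16 members all 3 Mcl1 KO libraries lay below all 3 WT libraries, which held for 17.1% of all genes. In bulk liver, fewer cells of a type and less RNA per cell cannot be told apart. The hepatocyte marker sum was 102000 to 140000 CPM in Mcl1 KO and 98300 to 151000 CPM in WT livers, which overlap, and Alb made up most of it. Of the 9 hepatocyte markers 1 was called, Serpina1c (1560 to 1860 CPM in Mcl1 KO against 2960 to 4110 CPM in WT, -1.09 ± 0.19, adjusted p = 0.00418), and Hnf4a also lay below WT in all libraries (438 to 581 CPM against 659 to 723 CPM, adjusted p = 0.0958). In the rest the groups overlapped. Tat went the other way (0.92 ± 0.34, adjusted p = 0.0754), and Alb differed by 0.05. Ttr, Apoa1, Apob, Cps1 and Tdo2 differed by -0.83 to -0.14. The macrophage sum was 555 to 625 CPM against 322 to 515 CPM, with 4 of 7 markers called higher, and the stellate cell sum 770 to 875 CPM against 314 to 531 CPM, with 4 of 6 called higher. The part of these markers in the result was not tested.

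**Figure D1:**
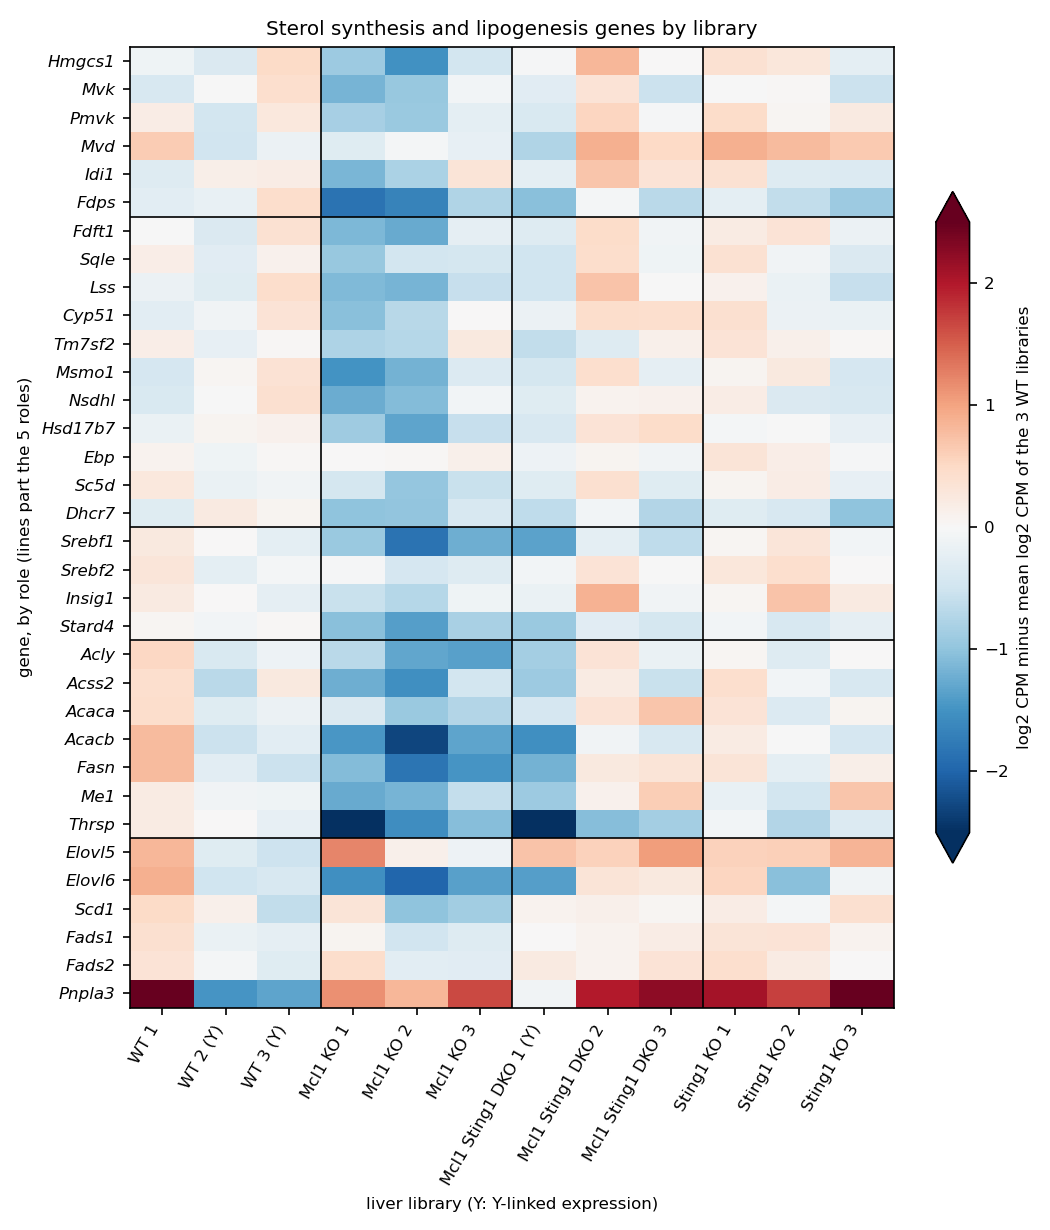
Log2 CPM of each of the 34 genes (rows, by role) in each of the 12 liver libraries (columns), minus the mean of the 3 WT libraries, in log2 units, with Y marking libraries with Y-linked expression. The 3 Mcl1 KO columns are blue over most of the sterol and fatty acid rows, replicate 3 is paler in the sterol rows, and Pnpla3 is lowest in the libraries with the Y mark.

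The mevalonate steps lead from acetyl-CoA to farnesyl diphosphate, and 1 of their 6 genes passed the test. That gene was Fdps (chr3:89000888-89019213), which encodes farnesyl diphosphate synthase. Its level was 339, 360 and 554 CPM in WT replicates 1 to 3, 113, 127 and 241 CPM in Mcl1 KO, 197, 394 and 257 CPM in Mcl1 Sting1 DKO, and 342, 264 and 217 CPM in Sting1 KO livers. Every Mcl1 KO library lay below every WT library, and the fall was by 1.38 ± 0.34 on the log2 scale (SE, n = 3 per group, adjusted p = 0.0175). The highest of the 12 values was WT replicate 3. Hmgcs1, whose enzyme condenses acetyl-CoA with acetoacetyl-CoA to HMG-CoA, was measured at 560, 469 and 841 CPM in WT, 322, 213 and 437 CPM in Mcl1 KO, 589, 1080 and 607 CPM in Mcl1 Sting1 DKO, and 787, 739 and 511 CPM in Sting1 KO livers. For this gene the Mcl1 KO libraries were the 3 lowest of the 12, but the difference from WT, -0.94 ± 0.33 on the log2 scale, missed the threshold (adjusted p = 0.0596). For the others (Mvk and Pmvk, the kinases, Mvd, the decarboxylase, and Idi1, the isomerase) the log2 fold changes lay between -0.68 and -0.25, with adjusted p from 0.0953 to 0.632 and overlapping groups.

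Of the 11 genes from squalene to cholesterol, 3 passed the test, all of them lower. Lss (chr10:76367298-76392976), which encodes the cyclase that makes lanosterol, stood at 104, 93 and 156 CPM in WT, 53.6, 51.4 and 76.8 CPM in Mcl1 KO, 81.6, 188 and 114 CPM in Mcl1 Sting1 DKO, and 124, 103 and 77.2 CPM in Sting1 KO livers. It fell by 0.96 ± 0.31 (log2, SE, adjusted p = 0.0481), and its Mcl1 KO values lay below those of every other group. Hsd17b7 (chr1:169777093-169796813) encodes a sterol 3-keto reductase. Its values were 93.8, 110 and 114 CPM in WT, 57.1, 42.2 and 70.6 CPM in Mcl1 KO, 79.7, 134 and 146 CPM in Mcl1 Sting1 DKO, and 102, 105 and 92 CPM in Sting1 KO livers. Here too the Mcl1 KO libraries were the 3 lowest, with a fall by 0.91 ± 0.23 (adjusted p = 0.0197). Dhcr7 (chr7:143376740-143402149), the reductase of the last step to cholesterol, was present at 80, 116 and 104 CPM in WT, 49.2, 49.9 and 74.9 CPM in Mcl1 KO, 63.9, 93.8 and 59.5 CPM in Mcl1 Sting1 DKO, and 80.1, 74.6 and 49 CPM in Sting1 KO livers. It fell by 0.79 ± 0.25 between Mcl1 KO and WT (adjusted p = 0.0452), where the groups did not overlap, while the Sting1 KO values reached as low as those of Mcl1 KO.

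Sqle, which encodes squalene epoxidase, a rate-limiting step of the later pathway, gave 151, 110 and 145 CPM in WT, 69, 97.5 and 98.8 CPM in Mcl1 KO, 94.6, 181 and 125 CPM in Mcl1 Sting1 DKO, and 174, 127 and 104 CPM in Sting1 KO livers. Mcl1 KO and WT did not overlap, but the difference of -0.61 ± 0.26 had an adjusted p of 0.111. Sc5d, the sterol desaturase gene, also had Mcl1 KO libraries (426 to 612 CPM) below all WT libraries (738 to 986 CPM) and an adjusted p of 0.0634. Ebp, which encodes a sterol isomerase on the same route, differed by 0.05 with a 95% interval from -0.24 to 0.34, and its libraries spanned only 228 to 309 CPM over the 4 genotypes. The remaining 5, Fdft1, Cyp51, Tm7sf2, Msmo1 and Nsdhl, had log2 fold changes from -0.96 to -0.34 and adjusted p from 0.0593 to 0.385. In all 5 the groups overlapped, since Mcl1 KO replicate 3 reached into the WT range.

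Among the regulators, Srebf1 changed and Srebf2 and Insig1 did not pass the test. Srebf1 (chr11:60089913-60113407) stood at 678, 576 and 486 CPM in WT, 302, 159 and 247 CPM in Mcl1 KO, 228, 486 and 368 CPM in Mcl1 Sting1 DKO, and 597, 706 and 545 CPM in Sting1 KO livers. Its fall by 1.30 ± 0.29 on the log2 scale, 2.46-fold, had an adjusted p of 0.0114. No Mcl1 KO library exceeded 302 CPM, and no WT or Sting1 KO library was under 486 CPM. Srebf2 was measured at 46.8, 32.1 and 36.9 CPM in WT, 37.1, 28.6 and 30.3 CPM in Mcl1 KO, 36.6, 48.1 and 37.7 CPM in Mcl1 Sting1 DKO, and 46.3, 50.7 and 38.4 CPM in Sting1 KO livers. These ranges overlapped, and the difference of -0.27 (95% interval -0.66 to 0.12) had an adjusted p of 0.296. Insig1, the anchor that retains the SREBP precursors and itself a target of SREBP, gave 500, 428 and 363 CPM in WT, 291, 262 and 395 CPM in Mcl1 KO, 379, 780 and 403 CPM in Mcl1 Sting1 DKO, and 443, 703 and 498 CPM in Sting1 KO livers. WT replicate 3 lay below Mcl1 KO replicate 3, and the difference of -0.45 ± 0.29 had an adjusted p of 0.282. Stard4, which encodes a soluble carrier of cholesterol, had the smallest adjusted p of the 34 genes (0.00476). Its WT values of 174, 161 and 173 CPM lay far above the 82.4, 65 and 95.9 CPM of Mcl1 KO, a fall by 1.06 ± 0.19. It was at 89.2, 139 and 125 CPM in Mcl1 Sting1 DKO and 162, 127 and 146 CPM in Sting1 KO livers, where Mcl1 Sting1 DKO replicate 1 fell in the Mcl1 KO range and Sting1 KO replicate 1 in the WT range.

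**Figure D2:**
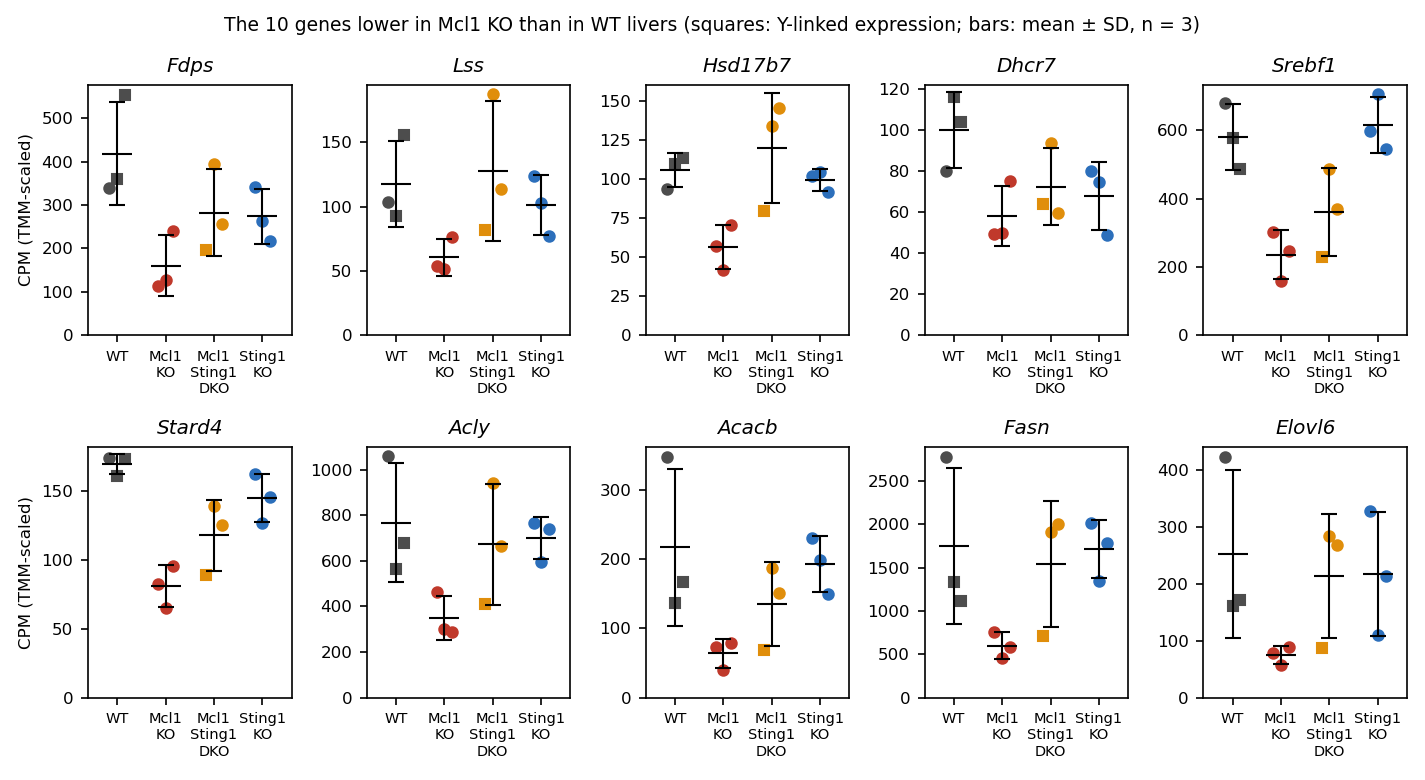
CPM (vertical axes from 0) of the 10 genes that were lower in Mcl1 KO than in WT livers, with 1 point per library, bars for the mean ± SD of 3 libraries, and squares for libraries with Y-linked expression. In each panel the 3 Mcl1 KO points lie below the 3 WT points, and the lowest Mcl1 Sting1 DKO point is the square in 9 of the 10 panels, Dhcr7 being the exception.

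The 7 genes of fatty acid synthesis had the lowest median of the roles, -1.13, and 3 of them passed the test. Acly (chr11:100367165-100440756) encodes the enzyme that makes cytosolic acetyl-CoA from citrate. It stood at 1060, 564 and 677 CPM in WT, 462, 300 and 289 CPM in Mcl1 KO, 411, 943 and 663 CPM in Mcl1 Sting1 DKO, and 765, 594 and 741 CPM in Sting1 KO livers, a fall by 1.13 ± 0.32 in Mcl1 KO (adjusted p = 0.0289). Acacb (chr5:114284307-114388822), the mitochondrial acetyl-CoA carboxylase whose malonyl-CoA restrains fatty acid oxidation, was found at 347, 137 and 167 CPM in WT, 72.7, 40.6 and 79.5 CPM in Mcl1 KO, 68.8, 187 and 151 CPM in Mcl1 Sting1 DKO, and 230, 199 and 150 CPM in Sting1 KO livers. It fell by 1.75 ± 0.42, 3.37-fold (adjusted p = 0.0159). For both genes WT replicate 1, the WT library without Y-linked expression, was the highest of the 12, and no Mcl1 KO library reached the lowest WT library.

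Fasn, the fatty acid synthase gene, reached 2780, 1340 and 1120 CPM in WT. It was at 760, 456 and 582 CPM in Mcl1 KO, 710, 1910 and 2010 CPM in Mcl1 Sting1 DKO, and 2020, 1350 and 1780 CPM in Sting1 KO livers. The fall of 2.91-fold, a log2 fold change of -1.54 ± 0.42, had an adjusted p of 0.025, and the highest Mcl1 KO library lay below the lowest WT library. Acaca, the cytosolic acetyl-CoA carboxylase that commits acetyl-CoA to synthesis, was at 216, 130 and 146 CPM in WT, 125, 84.7 and 96.2 CPM in Mcl1 KO, 120, 203 and 259 CPM in Mcl1 Sting1 DKO, and 202, 127 and 167 CPM in Sting1 KO livers. Its groups did not overlap by a narrow margin, and the difference of -0.69 ± 0.29 had an adjusted p of 0.111. Me1, the malic enzyme that supplies NADPH, and Thrsp, which encodes the thyroid hormone-responsive Spot14 protein, likewise lay below WT in all 3 libraries without passing the test (-0.98 ± 0.37, adjusted p = 0.0751, and -1.71 ± 0.67, adjusted p = 0.0902). Acss2, the cytosolic acetyl-CoA synthetase gene, differed by -1.07 ± 0.38 (adjusted p = 0.0636), with 159 to 334 CPM in Mcl1 KO and 290 to 621 CPM in WT livers. Its promoter window held 2 matches to the letters of the sterol element.

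Of the 6 genes of elongation, desaturation and remodelling, Elovl6 alone passed the test. Elovl6 (chr3:129326004-129432144) encodes the elongase that takes palmitate to stearate. It stood at 422, 161 and 172 CPM in WT, 78.5, 57.6 and 88.4 CPM in Mcl1 KO, 87.3, 284 and 268 CPM in Mcl1 Sting1 DKO, and 328, 110 and 214 CPM in Sting1 KO livers, a fall by 1.75 ± 0.51 in Mcl1 KO (adjusted p = 0.0337). All 3 Mcl1 KO values lay below WT, and the lowest Mcl1 Sting1 DKO library fell within the Mcl1 KO range. Scd1, the stearoyl-CoA desaturase gene, gave 10900, 8600 and 5120 CPM in WT, 9840, 3880 and 4300 CPM in Mcl1 KO, 8320, 8520 and 8150 CPM in Mcl1 Sting1 DKO, and 8950, 7620 and 10300 CPM in Sting1 KO livers. Mcl1 KO replicate 1 lay within the WT range, and the difference of -0.45 had a 95% interval from -1.20 to 0.30 (adjusted p = 0.363). Per exon length Scd1 was also the most abundant member, at 4130 ± 1630 TPM (length-scaled counts, SD, n = 3) in WT, and Pnpla3 the least, at 1.81 ± 2.70 TPM. The desaturase genes Fads1 and Fads2 and the elongase gene Elovl5, which serve polyunsaturated fatty acids, differed by -0.25, -0.02 and 0.41, with adjusted p from 0.370 to 0.957.

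Pnpla3, a lipid droplet acyl hydrolase gene, was lowest in the libraries with Y-linked expression. It stood at 0.356, 0.396 and 0.935 CPM in these 3 and at 1.77 to 7.79 CPM in the 9 others, among which the 3 Mcl1 KO libraries (1.77, 2.19 and 3.13 CPM) were the lowest. Between Mcl1 KO and WT it differed by -0.13 with a 95% interval from -2.12 to 1.86 (adjusted p = 0.933), and its value ranged from -1.56 to 2.64 over 22 alternative settings.

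**Figure D3:**
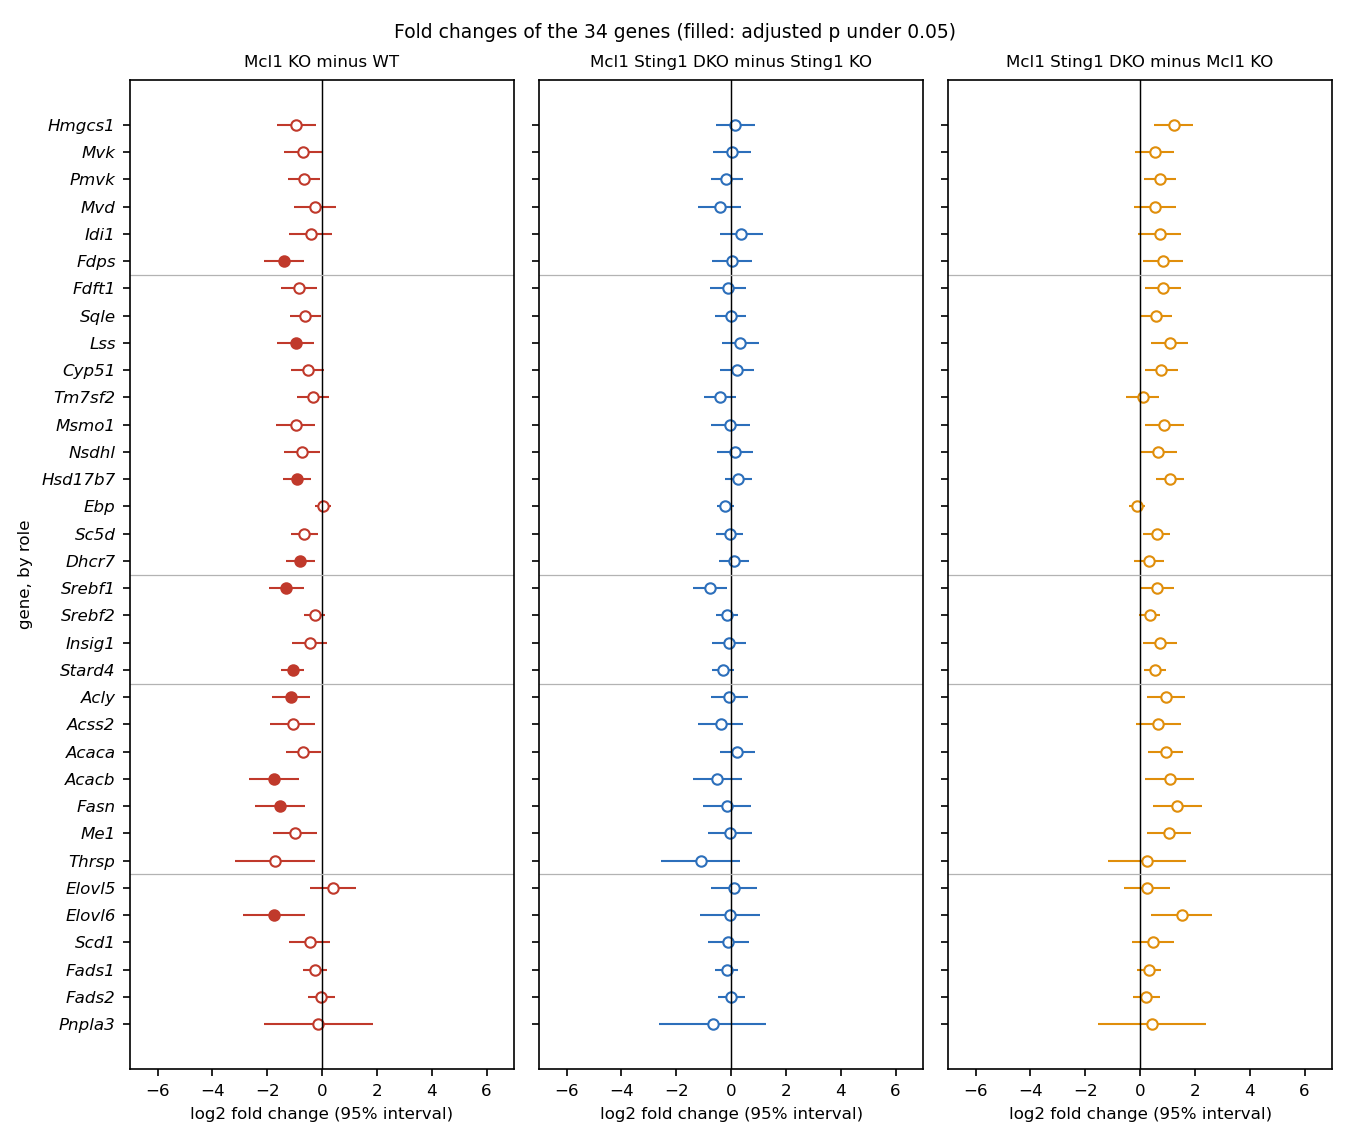
Log2 fold change (horizontal axes) of each of the 34 genes (rows, by role, parted by lines) with its 95% interval, in Mcl1 KO minus WT, Mcl1 Sting1 DKO minus Sting1 KO and Mcl1 Sting1 DKO minus Mcl1 KO, filled where the adjusted p is under 0.05. In the first panel 32 of 34 points lie left of 0 and 10 are filled, the second is spread around a median of -0.05 with none filled, and in the third 33 of 34 lie right of 0 with none filled.

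The 10 calls depended on which libraries were used. Without Mcl1 KO replicate 2, 2 members were called, Srebf1 and Stard4, where 2.72% of all genes were called lower, and without WT replicate 3, 5 (3.99% of all genes lower). Without Mcl1 KO replicate 3, the library with muscle and pancreas transcripts, 16 were called, all lower and 7 of them among the 10, against 7.2% of all genes. Without that library and Mcl1 Sting1 DKO replicate 1 together, 22 were lower, the 10 included, against 7.12% of all genes, with a median of -1.01. Without WT replicate 1, 7 were lower, 6 of them among the 10, and Pnpla3 was higher (7.98% and 9.44% of all genes). With the 9 libraries without Y-linked expression alone, WT keeps 1 library, assumed to vary like the other groups, and the median was -0.80. Any call from that fit rests on this assumption. Within those libraries Fasn and Acacb differed by -2.22 and -2.44, and Fdps and Dhcr7 by -1.09 and -0.47. With Y-linked expression as a covariate 13 were lower, against 4.23% of all genes, of which 7 were among the 10, Fdps, Lss and Dhcr7 being lost. Adding the small structured RNA share to the fit gave 0 calls and a median of -0.70. In that fit 0.537% of all genes were called lower and 2.65% higher. Before adjustment 4 members had a p under the threshold there, a smaller share than the 19.1% of all genes. DESeq2 called 16 lower, the 10 among them, against 11% of all genes. Srebf1 and Stard4 were called in 20 of 22 alternative settings, Acacb in 19, Fdps and Hsd17b7 in 17, Fasn and Elovl6 in 16, Acly in 15, Dhcr7 in 7 and Lss in 6, and all 10 had a negative fold change in all 22.

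To ask whether loss of Sting1 altered these levels in Mcl1-deficient livers, Mcl1 Sting1 DKO was compared with Mcl1 KO. The comparison shares its Mcl1 KO libraries with the preceding one, so the pair are not independent. None of the 34 members, and 0% of all genes, passed the adjusted threshold in edgeR, although 19 members (and 20.6% of all genes) had an unadjusted p under 0.05 and DESeq2 called 6 members higher (Hmgcs1, Lss, Hsd17b7, Acaca, Acly and Fasn), where it called 2.49% of all genes higher. The fold change was positive for 33 members, with a median of 0.66 and a range from -0.10 to 1.51, beside a median of 0.00 and quartiles of -0.30 and 0.27 over all genes. In Hmgcs1, Lss, Hsd17b7 and Sc5d all Mcl1 Sting1 DKO libraries lay above all Mcl1 KO libraries, 4 members against 8.97% of all genes. Side by side, Hmgcs1 differed by -0.94 in Mcl1 KO minus WT and 1.23 ± 0.33 in Mcl1 Sting1 DKO minus Mcl1 KO (adjusted p = 0.133), and Hsd17b7 by -0.91 and 1.08 ± 0.23 (adjusted p = 0.131). Fasn differed by -1.54 and 1.36 ± 0.41 (adjusted p = 0.143), and Elovl6 by -1.75 and 1.51 ± 0.51 (adjusted p = 0.157). For Srebf1 the values were -1.30 and 0.61 ± 0.28 (adjusted p = 0.248), and for Thrsp -1.71 and 0.24 ± 0.65 (adjusted p = 0.858).

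Mcl1 Sting1 DKO replicate 1 lay nearer to the Mcl1 KO libraries than the other two did. In it the 7 fatty acid synthesis genes had a median of -0.91 relative to the WT mean (log2), against 0.21 and -0.16 in replicates 2 and 3 and -1.22, -1.53 and -1.06 in the Mcl1 KO libraries. Its sterol genes from squalene on had a median of -0.41, close to the -0.34 of Mcl1 KO replicate 3 and above the -1.01 and -0.99 of replicates 1 and 2. That library also had Y-linked expression, the outlying clock genes and a stellate cell marker sum of 800 CPM, within the 770 to 875 CPM of Mcl1 KO, against 563 and 512 CPM in replicates 2 and 3. The neutrophil sum was 6.6 to 18.8 CPM in Mcl1 KO and 3.11 to 4.19 CPM in Mcl1 Sting1 DKO livers, while the macrophage sums (555 to 625 and 550 to 647 CPM) and the hepatocyte sums (102000 to 140000 and 124000 to 132000 CPM) overlapped. What part these had was not tested. Without Mcl1 Sting1 DKO replicate 1 the median of the 34 members was 0.88 and 0 were called. Without that library and Mcl1 KO replicate 3 the median was 1.12 and 1 (Hsd17b7) was called higher, where 0.242% of all genes were called higher. Without Mcl1 KO replicate 1, 5 were called higher, namely Hsd17b7, Acaca, Acly, Fasn and Scd1, where 11.2% of all genes were called higher. Other omissions weakened the result. Against 19 members (20.6% of all genes) with all libraries, 7 (15.7%) had an unadjusted p under 0.05 without Mcl1 Sting1 DKO replicate 2. The number was 9 (9.72%) without Mcl1 KO replicate 2. Mcl1 Sting1 DKO replicate 2 had the highest member median of the 12 libraries, 0.34 relative to the WT mean (log2).

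**Figure D4:**
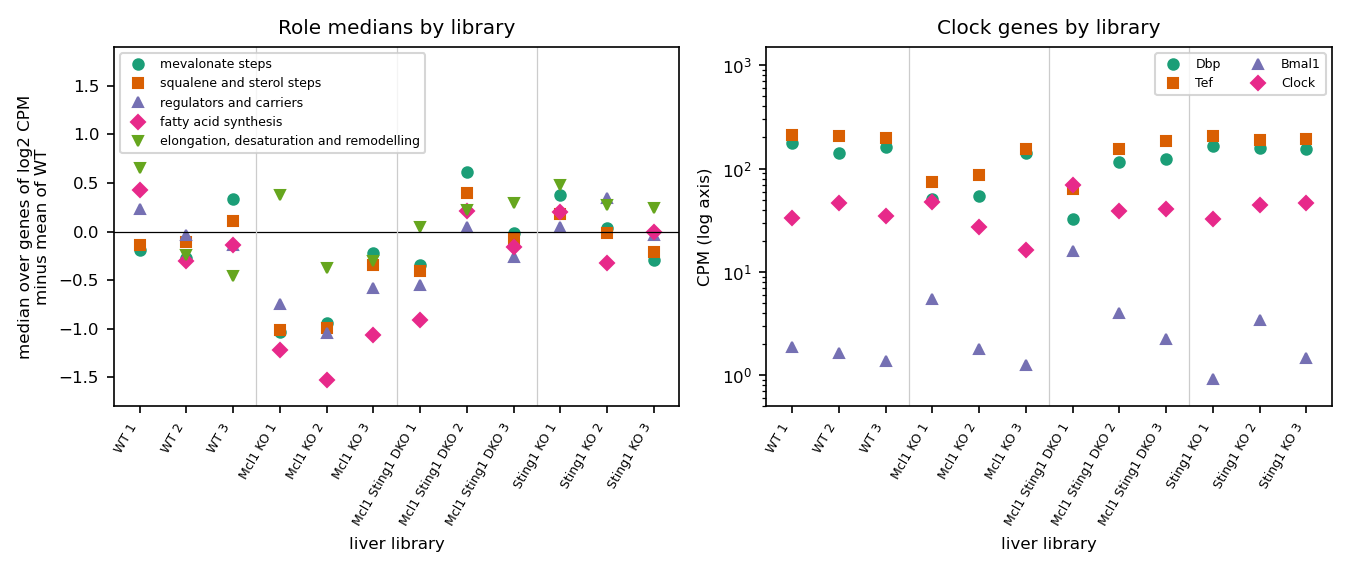
Left, the median over the genes of each role of log2 CPM minus the WT mean (log2 units), for each of the 12 libraries. Right, CPM on a log axis of the clock genes Dbp, Tef, Bmal1 and Clock in the same libraries. The fatty acid synthesis median is under -0.90 in the 3 Mcl1 KO libraries and in Mcl1 Sting1 DKO replicate 1, and Dbp is under 55 CPM in Mcl1 KO replicates 1 and 2 and in Mcl1 Sting1 DKO replicate 1.

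On the Sting1-null background the effect of Mcl1 deletion was read from Mcl1 Sting1 DKO minus Sting1 KO, which shares no library with Mcl1 KO minus WT. No member passed the threshold, where 0.126% of all genes were called lower and 0.677% higher, and 1 member (Srebf1) against 11.3% of all genes had an unadjusted p under 0.05. The median was -0.05 with a range from -1.10 to 0.37. Srebf1 was lower by 0.77 ± 0.28 (adjusted p = 0.306), and Srebf1 and Thrsp were the 2 members whose Mcl1 Sting1 DKO libraries all lay below all Sting1 KO libraries, a pattern of 10.8% of all genes. The 95% interval ran from -1.04 to 0.73 for Fasn, from -1.12 to 1.06 for Elovl6 and from -1.40 to 0.39 for Acacb, and the values of these genes in Mcl1 KO minus WT (-1.54, -1.75 and -1.75) lay outside. Those values carry errors of their own.

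The difference between these effects was tested as an interaction. It was positive for 29 members, with a median of 0.72, but 0 members and 0% of all genes passed the adjusted threshold in edgeR, where 10 members (14.4% of all genes) had an unadjusted p under 0.05. DESeq2 called 0 members, where it called 0.435% of all genes lower and 0.72% higher. Before adjustment 13 members, and 15.2% of all genes, were under 0.05 in DESeq2. Hsd17b7 had a value of 1.17 ± 0.32 (adjusted p = 0.255) and Lss one of 1.30 ± 0.44 (adjusted p = 0.287). A difference between backgrounds was not established for any member. Averaged over both backgrounds, the effect of Mcl1 deletion was called in 3 members, all lower, where 6.83% of all genes were called lower and 9.9% higher. DESeq2 called 8 lower, against 8.29% of all genes. The 3 were Srebf1 at -1.03 ± 0.20 (adjusted p = 0.00603), Stard4 at -0.68 ± 0.13 (adjusted p = 0.00622) and Acacb at -1.13 ± 0.29 (adjusted p = 0.0224). Without the 3 libraries with Y-linked expression 2 members were called, Acacb (adjusted p = 0.0373) and Fasn, against 0.505% of all genes lower, and the adjusted p of Srebf1 and Stard4 were 0.0519 and 0.095, the highest of their 21 alternatives, of which the lowest were 9.29e-06 and 5.62e-05. Acacb was called in 18 of 21 alternatives (adjusted p from 0.000806 to 0.116) and not with the small structured RNA share in the fit, without Mcl1 KO replicate 2 or without Sting1 KO replicate 1.

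With Mcl1 intact, Sting1 KO livers were compared with WT. No member, and 0% of all genes, passed the threshold in edgeR, DESeq2 called 0 members, and 1 member (Dhcr7) and 5.45% of all genes had p under 0.05 before adjustment. The median was 0.01, with a range from -0.60 (Fdps) to 0.98 (Pnpla3). Mvd was the 1 member whose Sting1 KO libraries (38.7 to 45.9 CPM) all lay above WT (17.7 to 38.3 CPM), which held for 7.06% of all genes. Over the 4 genotypes, the lowest mean log2 CPM fell in Mcl1 KO for 30 of the 34 members, against 38% of all tested genes.

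Other genes of the pathways, from lists drawn up for background, gave medians nearer to 0. Over all tested genes, 9.43% were called lower and 10.8% higher in Mcl1 KO minus WT. Of 22 tested sterol genes outside the set, 3 were lower in Mcl1 KO than in WT livers and 1 higher, with a median of -0.26. The lower ones were Scap, the SREBP escort (-0.90 ± 0.22, adjusted p = 0.0181), Abcg8, a subunit of the exporter of sterols into bile (-1.38 ± 0.26, adjusted p = 0.00576), and Npc1, the lysosomal cholesterol transporter (-0.85 ± 0.22, adjusted p = 0.0232). Abcg1, a cholesterol efflux pump, was higher (0.66 ± 0.17, adjusted p = 0.0237). Of 30 genes of fatty acid and triglyceride metabolism outside the set, 8 were lower and 3 higher, with a median of -0.21. Lower were Mlxipl, which encodes the carbohydrate-responsive factor ChREBP (-1.05 ± 0.22, adjusted p = 0.00864), its target Pklr (-1.46 ± 0.41, adjusted p = 0.0294), the triglyceride synthesis genes Gpam and Dgat2 (-1.17 and -0.86), and Slc25a1, Fads6, Pcx and Elovl3. Elovl3 stood at 106, 134 and 240 CPM in the 3 libraries with Y-linked expression and at most 7.25 CPM in the others, so its value of -6.80 moved with the Y mark. Higher were the lipid droplet genes Cidec and Plin2 (2.44 ± 0.57, adjusted p = 0.0143, and 1.11 ± 0.32, adjusted p = 0.0311) and the elongase gene Elovl7 (2.93 ± 0.58, adjusted p = 0.00695). In Mcl1 Sting1 DKO minus Mcl1 KO 0 genes of either list were called, and 0% of all genes.

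The clock and the feeding state set the level of lipogenic genes in normal liver, and neither the hour of collection nor the feeding state is given in the sources used here. Of 16 clock genes, 4 were lower in Mcl1 KO than in WT livers (Cry2, Nr1d1, Hlf and Bhlhe41) and 0 higher. Over all tested genes, 9.43% were called lower and 10.8% higher in that comparison. Dbp, an output gene of the clock, stood at 50.5 and 54.4 CPM in Mcl1 KO replicates 1 and 2 and 32.8 CPM in Mcl1 Sting1 DKO replicate 1, against 117 to 175 CPM elsewhere, Mcl1 KO replicate 3 included. These libraries and Mcl1 KO replicate 3 were the 4 lowest in fatty acid synthesis genes. Of 12 genes that respond to fasting or feeding, 3 were higher in Mcl1 KO, namely Pdk4 (2.77 ± 0.36, adjusted p = 0.00133), Igfbp1 (2.49 ± 0.80, adjusted p = 0.0475) and Fgf21 (4.28 ± 1.36, adjusted p = 0.0444). Pdk4 was at 7.77 to 16.6 CPM in Mcl1 KO and 10.1 to 19.2 CPM in Mcl1 Sting1 DKO, against 1.28 to 2.37 CPM in WT and 2.47 to 4.38 CPM in Sting1 KO livers. Igfbp1 overlapped, at 28.8 to 166 CPM in Mcl1 KO and 8.63 to 32.2 CPM in WT livers. Fgf21 was uneven, at 15.7, 1.77 and 0.601 CPM in Mcl1 KO replicates 1 to 3 and 0.178 to 0.528 CPM in WT livers. The part of collection time or feeding in the lower lipogenic genes was not tested.

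Some members share sequence or position with other genes, and whether the counting used strand is not given in the sources used here. The span of Fdft1 overlaps that of Ctsb on the opposite strand, whose mean was 439% of that of Fdft1, and the spans of Sqle, Acss2, Cyp51 and Nsdhl overlap opposite-strand genes at 33.4%, 25%, 19.2% and 16.6% of the member's mean. Pnpla3 overlaps Gm49513 on its own strand, whose mean was 364% of that of Pnpla3, Tm7sf2 overlaps Vps51 on its own strand, at 12.6%, and Scd1 lies in a family of close copies. Their values are uncertain to that extent. Of the 10 members called lower, none overlapped a tested gene above 2.11% of its own level.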

How the data were processed

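Total RNA of mouse liver was sequenced by the authors in 12 libraries, 3 per genotype. RNA was extracted with a column kit, and the submitters' processing notes name STAR, featureCounts and GRCm39. Versions, annotation and strand setting are not given in the sources used here. The deposited values are raw counts per Ensembl gene, 1 file per library. Of 40551 identifiers, 39533 matched a GENCODE vM39 name. Groups came from the genotype labels, and the replicate numbers from the titles.

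All genes kept by filterByExpr (15070) were fitted once over the 4 genotypes in edgeR 4.0.16 (R 4.3.3) with TMM factors and the quasi-likelihood test, with Benjamini-Hochberg adjustment over all tested genes and a threshold of 0.05. The common dispersion was 0.0699. The script was tested on simulated counts. CPM are TMM-scaled, and TPM used exon lengths of GENCODE vM39. The mean Mcl1 effect averages Mcl1 KO minus WT and Mcl1 Sting1 DKO minus Sting1 KO, and the interaction is their difference (the second minus the first). Counts per library allow precise levels within it, so the 3 libraries per group limit precision. Values are given per library for members called in Mcl1 KO minus WT and for Srebf1, Srebf2, Insig1, Hmgcs1, Sqle, Acaca, Fasn and Scd1, other members by range and count, and other pathway genes by name if called. Values outside that rule (Pnpla3, Elovl3, Dbp, Bmal1, Pdk4, Igfbp1, Fgf21) were named after they were seen. Members and lists were chosen with earlier results of these data known. Promoter windows were read from the GRCm39 genome at the starts of GENCODE vM39 canonical transcripts, because the RefSeq promoter table is of another build, and the window of 1 member is not reported here. Alternatives were DESeq2 1.42.0, RLE and upper-quartile factors, no filter, only the groups compared, a replicate block, covariates for Y-linked expression and small structured RNA, and each library left out. Added after seeing the data were fits without the libraries with Y-linked expression, and without Mcl1 KO replicate 3 and Mcl1 Sting1 DKO replicate 1. Same-numbered libraries of different groups deviated together with correlations from -0.54 to 0.25, so the numbers were not taken as pairs.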

Additional observations from a re-analysis of the deposited data

How the results depend on the processing

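For Mcl1 KO minus WT the number of members called was 10 in the fit reported, 16 with DESeq2, 0 with the small structured RNA share as a covariate, 0 in the libraries with no Y-linked expression and 22 without the 2 libraries that stood apart (Mcl1 KO replicate 3 and Mcl1 Sting1 DKO replicate 1), where the median log2 fold change was -1.01 against -0.71. Leaving out 1 library at a time gave 2 to 16 calls (2 without Mcl1 KO replicate 2, 5 without WT replicate 3, 16 without Mcl1 KO replicate 3) and medians from -1.01 to -0.61. For Mcl1 Sting1 DKO minus Mcl1 KO the number was 0, against 6 with DESeq2 (2.49% of all genes called higher) and 1 without the 2 libraries that stood apart (0.242%). The median without those libraries was 1.12 against 0.66. Leaving out 1 library gave 0 to 5, the 5 without Mcl1 KO replicate 1 (11.2% of all genes higher). For the mean Mcl1 effect the number was 3, where 6.83% of all genes were called lower. It was 8 with DESeq2 (8.29% of all genes lower), 9 with Y-linked expression as a covariate (7.23%) and 6 without the 2 libraries (4.89%). Leaving out 1 gave 2 to 9. There were 6 without Mcl1 KO replicate 1 (14.4% of all genes lower), 9 without Mcl1 KO replicate 3 (7.29%) and 6 without Mcl1 Sting1 DKO replicate 2 (4.22%). The median interaction was 0.72, 1.20 without the 2 libraries, and 0.45 to 1.01 when 1 was left out. The causes were not tested, although leaving out libraries also leaves fewer to test with. With the replicate number as a block 8 members were called in Mcl1 KO minus WT (7.87% of all genes lower) and the median was -0.72. The numbers pair no libraries by the labels, and not every library lay closest to its own number (a share of 0.33). Upper-quartile factors moved the median of all genes to 0.13, that of the members to -0.56 and the calls to 8 (5.36% of all genes lower). For the named genes reported as called, 211 of 283 values under an alternative kept the call and 72 lost it. For those reported as not called, 12 of 308 gained one. None of these was called in the other direction. The genes counted are those given per library by rule. Pnpla3 is not among them, and it was called higher without WT replicate 1. With 3 libraries per group, members that missed the threshold are not shown to be alike.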
